A study of Mus musculus with 6 samples.

Results

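Classical monocytes in the lung digest were selected on their own transcripts in a pooled single-cell table. Expression was counted in UMIs (unique molecular identifiers, which mark single captured RNA molecules), and barcodes with fewer than 500 genes or with over 10% of UMIs from mitochondrial genes were left out. Membership was chosen by the UMIs of marker genes: a cell was a member when at least 3 of the 6 genes F13a1, Ly6c2, Ccr2, Ifitm6, Ms4a6c and Clec4a1 had a UMI and Ly6c2 or F13a1 was among them. It also had to hold no UMI of Krt79, Ear1, Cd79a or Treml4 and at most 2 UMIs of C1qa, C1qb and C1qc together. This gave 418 cells among 9994 kept barcodes of 10410 in all, or 4.18% of those kept (95% interval 3.80 to 4.59). They held 2170027 UMIs together, and the median cell had 5035 UMIs from 1703 genes.

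Classical monocytes are made in the bone marrow, circulate in blood and enter injured tissue through the chemokine receptor CCR2. In mice they carry the surface protein Ly6C at a high level, and in tissue they can become macrophages or antigen-presenting cells. Part of them turn into nonclassical monocytes, which patrol the vessel wall and depend on the nuclear receptor Nr4a1. Alveolar macrophages, in contrast, live in the airspace, clear surfactant and mostly renew themselves locally.

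The cells came from lungs of SMA-GFP;Tbx4cre;RosaTdTomato mice, in which a smooth muscle actin (SMA) reporter is green and cells of the Tbx4 Cre lineage are red with tdTomato (Tm). All groups carried these alleles, and the sources used here do not give the animals' age, sex or number. The 6 labelled samples were SMA+Tm+, SMA-Tm+ and SMA-Tm- sorts, each from normal mice (day 0) and each from bleomycin-treated mice on day 21. Bleomycin injures the lung and is used to model fibrosis, and the study was about mesenchymal cells.

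How the table was built and how the cells were sorted bear on every value below. The barcodes end in suffixes 1 to 6 that no label or header ties to a sample, so the table was treated as 1 pooled sample, no day or gate was compared and no test across samples was possible. The labels also describe a sort of cells negative for the leukocyte antigen CD45, whereas 354 of the 418 monocytes (84.7%) held a UMI of Ptprc, which encodes CD45, so these cells go against the sort as labelled. All intervals are at 95% and cover counting error only.

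The monocytes were unevenly divided over the suffixes. Suffixes 1 to 6 held 10, 78, 193, 7, 54 and 76 of them. As a share of the kept barcodes of each suffix that was 0.756%, 3.92%, 13.9% (12.2 to 15.9), 0.232% and 3.41% in suffixes 1 to 5, and 76 of 691 (8.76% to 13.6%) in suffix 6. Suffixes 3 and 6 were thus high and suffixes 1 and 4 low, and the intervals of 3 and 6 did not overlap those of the other 4. Among monocytes and other leukocytes together, where other leukocytes were the 4227 non-members with a Ptprc UMI, monocytes made up 22.5% in suffix 3, 16.8% in suffix 6 and 0.992% in suffix 4. Without suffix 3 there were 225 monocytes. Of the 418 cells, 5 had a barcode sequence also seen in another suffix, and none of these pairs were both monocytes.

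**Figure D1:**
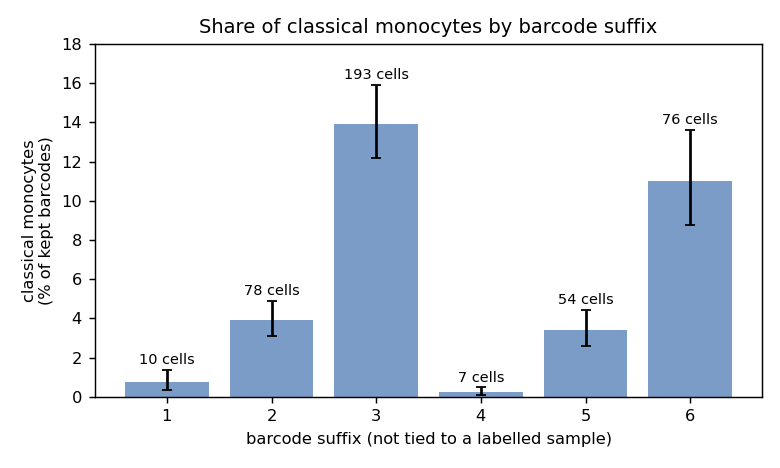
Bars give classical monocytes as a percentage of the kept barcodes of each barcode suffix, with exact 95% Clopper-Pearson intervals and the number of cells above. Suffixes 3 (13.9%) and 6 (76 of 691 barcodes) stand above the other 4, and suffix 4 has the lowest share (0.232%).

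The genes that chose the cells are described first, and nothing is supported with them. Levels are UMIs summed over a class and scaled to its total as CPM, the usual abbreviation for this common scale of counts. Ccr2, the receptor for monocyte chemoattractants, was at 878 CPM (839 to 919) in the monocytes, and at 1055, 879.5, 896 and 874 CPM in suffixes 2, 3, 5 and 6, the suffixes with 20 or more of these cells. F13a1, the A subunit of coagulation factor XIII, was at 581 CPM, and at 681, 613, 541 and 570.4 CPM in the same suffixes. Ly6c2, which encodes the Ly6C antigen, was at 575 CPM, and at 420.1, 429, 791 and 865 CPM, so suffixes 5 and 6 were high and suffixes 2 and 3 low. Ifitm6, of the interferon-induced transmembrane family, was at 618 CPM, the tetraspan gene Ms4a6c at 787 CPM and the C-type lectin gene Clec4a1 at 158 CPM. The Treml4 Ace monocytes described below had more Clec4a1 (338 CPM) and nearly as much Ifitm6 (478 CPM).

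Both Ly6c2 and F13a1 were found in 236 of the cells, Ly6c2 alone in 72 and F13a1 alone in 110. All 6 gate genes were present in 119 cells, 5 in 135, 4 in 79 and 3 in 85. Cells just inside the rule, with 3 gate genes, had 1839 CPM of Plac8, 1713 CPM of Ifitm3 and 70.0 CPM of the T cell gene Cd3d. The 153 cells just outside it, with 2 gate genes and all other conditions met, had 569 CPM of Plac8, 191 CPM of Ifitm3 and 445 CPM of Cd3d. At the limit on C1q, 406 members had no C1q UMI, 10 had 1 and 2 had 2, while 25 further barcodes met all other conditions and were left out (1 with a sum of 3 to 5 and 24 above 5). Depth enters the rule, because a cell with more UMIs shows more gate genes: with every barcode thinned to 1000 UMIs, 186 cells passed.

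Ly6c2 lies on chromosome 15 (chr15:75108158-75111970, minus strand, GRCm38) near Ly6c1 (chr15:75044018-75048830, minus strand), and over the last 300 bases of their transcripts, where 3′ UMI counting reads, 290 of 304 aligned positions were identical (95.4%). The division of UMIs between these genes is therefore uncertain. Along the whole Ly6c2 transcript, 52 of 2583 windows of 98 bases (2.01%) were found exactly in Ly6c1, and how UMIs were divided was not tested. Start-site windows of 3 genes are shown, each from 250 bases before to 50 after a RefSeq start (GRCm38.p6, all on the minus strand). They were chosen as windows of Ly6c2, its near copy Ly6c1 and F13a1 that hold the letters GAGGAAGT. These letters are a core of the sites bound by PU.1, the myeloid factor encoded by Spi1. Capitals mark each match, and both strands were searched. They lie at chr15:75111922-75112221 for Ly6c2, chr15:75048614-75048913 for Ly6c1 and chr13:37049164-37049463 for F13a1.
Ly6c2: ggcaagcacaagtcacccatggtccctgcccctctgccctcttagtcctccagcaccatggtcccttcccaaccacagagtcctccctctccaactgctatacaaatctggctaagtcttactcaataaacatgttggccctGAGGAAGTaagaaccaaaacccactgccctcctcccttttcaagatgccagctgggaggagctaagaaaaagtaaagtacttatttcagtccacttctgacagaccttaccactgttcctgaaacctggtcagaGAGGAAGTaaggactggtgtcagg
Ly6c1: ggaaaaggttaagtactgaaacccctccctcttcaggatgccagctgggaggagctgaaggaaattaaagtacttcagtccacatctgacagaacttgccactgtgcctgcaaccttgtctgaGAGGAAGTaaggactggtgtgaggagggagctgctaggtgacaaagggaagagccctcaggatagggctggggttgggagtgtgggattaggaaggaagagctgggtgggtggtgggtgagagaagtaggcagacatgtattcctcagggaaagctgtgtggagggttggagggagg
F13a1: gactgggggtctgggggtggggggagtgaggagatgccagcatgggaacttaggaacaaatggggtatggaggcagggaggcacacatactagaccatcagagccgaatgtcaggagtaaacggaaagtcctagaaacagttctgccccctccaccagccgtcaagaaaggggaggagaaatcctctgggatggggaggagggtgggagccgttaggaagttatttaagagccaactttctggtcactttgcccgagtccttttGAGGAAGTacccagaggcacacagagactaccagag
The Ly6c2 window holds 2 matches, the first 108 bases before the start, and the other windows shown hold 1 each. A further RefSeq window of Ly6c2, at chr15:75111888-75112187, also holds 2 matches, the first 142 bases before its own start. Among all 32851 RefSeq windows of this length, 3.2% hold the letters, and a match is a description of the sequence only. A further RefSeq window of F13a1 and of Ly6c1, and the windows of Ccr2, Ifitm6, Ms4a6c and Clec4a1, do not hold these letters. Spi1 itself was at 626 CPM in the monocytes (632, 628, 699 and 638 CPM in suffixes 2, 3, 5 and 6), at 302 CPM in other leukocytes and at 974 CPM in the Treml4 Ace monocytes. Its level differed little between the suffixes.

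Marker lists of other cell types were summed in the members. The classical monocyte markers are all gate genes, so their sum says nothing about the label. The 9 alveolar macrophage markers summed to 9.68 CPM against 2602 CPM in the alveolar macrophages, with Ear1, Krt79 and Marco at 0, of which the rule fixed Ear1 and Krt79. C1q macrophage markers summed to 111 CPM against 9294 CPM in the C1q macrophages, with Folr2 at 0. That list holds C1qa, C1qb and C1qc, whose UMIs defined both classes, so this contrast is partly set by the rule. B cell markers summed to 35.5 CPM, mesenchymal markers to 11.1 CPM and epithelial markers to 59.9 CPM, the last against 3255 CPM over all kept barcodes.

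Some members also held several transcripts from the marker lists of other cell types, and this touches several results. In 56 of the 418 cells, with 18.5% of the UMIs, 3 or more markers of another type were detected. These were T cell markers in 17 cells, conventional dendritic cell markers in 17, endothelial markers in 10, and neutrophil and NK cell markers in 5 each. Some of the listed markers were spread more widely over the members. Ly6c1, the near copy of Ly6c2 and in the endothelial list, was found in 103 members. Csf3r, of the neutrophil list, was found in 101 and Flt3, of the dendritic cell list, in 60. Holding such markers therefore does not by itself show another cell type. The 9 neutrophil markers ranged from 99.4 to 3302 CPM across the suffixes with all members. Their sum fell from 1657 to 123 CPM without the 56 cells. This fall is set in part by the choice, since the same markers picked some of those cells. Scrublet, a caller of droplets with more than 1 cell, marked 75 kept barcodes (0.75%) and none of the monocytes, and what these 56 cells are was not tested. Values without them, an alternative chosen after the data had been seen, are given below for the genes and lists they move most. For these values cells were taken out of the monocytes only, and the reference classes were left unfiltered.

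S100a8 and S100a9, which encode the antimicrobial calprotectin of neutrophils and inflammatory monocytes, were the clearest case. S100a8 stood at 131, 1345, 1493 and 33.8 CPM in suffixes 2, 3, 5 and 6, and at 823 CPM over all members. A member of suffix 3 alone held 53.1% of these UMIs, and S100a8 was seen in only 50 cells. S100a8 and S100a9 are among the neutrophil markers that picked part of the 56 cells. Their fall without these cells is therefore set in part by that choice. Without the 56 cells S100a8 was at 38.5 CPM (29.9 to 48.8), and at 12.9, 45.6, 30.4 and 37.6 CPM in the suffixes. B cells, from which no cells were removed, had 111 CPM, above this value and below the 823 CPM of all members. S100a9 fell in the same way from 702 to 14.1 CPM. The neutrophil granule genes Camp (162 CPM) and Ngp (138 CPM) sat in 6 and 4 cells and were at 1.70 and 0.566 CPM without the 56. Most of the members thus held no S100a8 UMI, whereas Ifitm3 and Plac8, which are not gate genes, were spread over 393 and 387 of the 418.

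**Figure D2:**
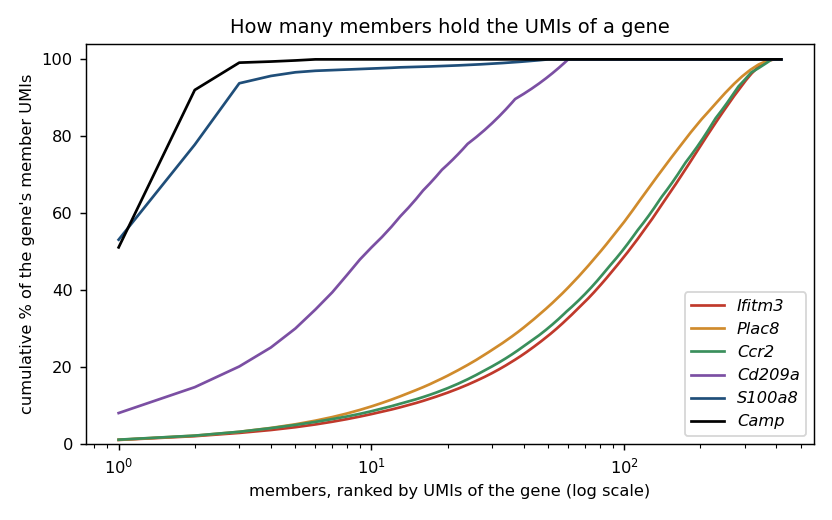
Each line gives the cumulative percentage of a gene's UMIs in the 418 monocytes (vertical axis) against members ranked from most to fewest UMIs of that gene (horizontal axis, log scale). Camp and S100a8 reach over 90% within the first few cells, Cd209a lies between, and Ifitm3, Plac8 and the gate gene Ccr2 rise slowly over most of the 418 cells.

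The first comparison was with other leukocytes. Of 6116 genes measured at 20 CPM or more in either class, 354 were 2-fold or more higher (5.79%) and 971 were 2-fold or more lower (15.9%), with the gate genes and Ptprc left out. These counts are descriptions of pooled sums, not tested calls. Of the 28 measured classical monocyte genes outside the gate, 20 were 2-fold or more higher and 1, the chitinase-like Chil3, was lower. Their median log2 ratio was 1.36, against -0.19 over all measured genes. This list was drawn up with monocytes of these data already known, so its direction is not independent evidence.

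Plac8, a small cysteine-rich protein, was at 2118, 2196, 3385 and 2693 CPM in the monocytes of suffixes 2, 3, 5 and 6. It was at 324 CPM in other leukocytes, 7.48-fold lower. Hp, which encodes the haemoglobin-binding protein haptoglobin, was at 265, 275, 399 and 329.9 CPM, and at 22.3 CPM in other leukocytes (13.2-fold). Suffixes 5 and 6 were the higher ones for both genes, and every suffix with 20 or more monocytes lay above the pooled level of the other leukocytes. Cd177, an adhesion glycoprotein best known from neutrophils, was at 62.2 CPM against 4.07 CPM (15.3-fold), and at 65.0 CPM without the 56 cells. It was found in 92 members, and no member held more than 5 of its UMIs. Vcan, which encodes the matrix proteoglycan versican, was at 40.1 CPM against 2.24 CPM (17.9-fold). Its level ran the other way over the suffixes, at 81.2, 48.6, 26.4 and 15.9 CPM in suffixes 2, 3, 5 and 6.

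Prtn3, which encodes proteinase 3, a granule serine protease of early myeloid cells, had the largest ratio with all members. It was at 62.2 CPM against 2.18 CPM, a log2 ratio of 4.83 (4.30 to 5.40), and at 138, 25.3, 52.7 and 95.4 CPM in suffixes 2, 3, 5 and 6. A member of suffix 2 held 25.2% of the Prtn3 UMIs, and without the 56 cells Prtn3 was at 52.0 CPM in 63 cells and its ratio of 23.8-fold came after those of Gm9733 (24.3-fold), Galnt9 (24.2-fold) and AI839979 (24.2-fold). The related granule proteins Elane and Mpo were at 7.83 and 7.37 CPM and were found in 8 and 4 cells. The granule list as a whole had 7 of 17 genes higher and 2 lower with all members (median log2 0.37). Without the 56 cells it had 6 of 16 higher and 8 lower, with a median of -1.79, so the direction of this list depended on those cells. The other leaders were AI839979 (21.6-fold), Gm9733 (21.3-fold), the glycosyltransferase gene Galnt9 (20.9-fold) and the syntaxin-binding gene Stxbp6 (14.3-fold).

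Interferon-stimulated genes came next. Of 28 measured, 14 were 2-fold or more higher and 3 lower, with a median log2 ratio of 0.88. Ifitm3, a membrane protein that blocks virus entry, was at 3325, 3586, 4453 and 3707 CPM in suffixes 2, 3, 5 and 6 against 286 CPM in other leukocytes (12.6-fold). Ifi204, a DNA sensor, was at 157 CPM against 18.5 CPM, and Irf7, a transcription factor of the interferon response, at 82.9 CPM against 13.7 CPM. Isg15, a ubiquitin-like protein induced by interferon, was at 27.6 CPM against 6.96 CPM. Ly6a, the stem cell antigen of many T cells, was lower at 32.7 CPM against 121 CPM, and at 6.79 CPM without the 56 cells.

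Most MHC class II genes were lower in the monocytes. Of 11 measured MHC class II genes, 8 were 2-fold or more lower and none higher, with a median log2 ratio of -2.11 and of -3.03 without the 56 cells. H2-Aa, the alpha chain of the I-A molecule, was at 438, 233, 181 and 135 CPM in suffixes 2, 3, 5 and 6, against 1358 CPM in other leukocytes. A member of suffix 4 held 23.9% of its UMIs. Without the 56 cells H2-Aa was at 158 CPM overall and at 249, 182, 99.8 and 101 CPM in the suffixes. H2-DMa, a peptide loader, was an exception at 293 CPM against 258 CPM. B cells, which are part of the reference and carry MHC class II, had 1856 CPM of H2-Aa.

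Chemokine ligands were mostly low: 8 of 10 were 2-fold or more lower and 1 higher. Their median log2 ratio was -2.22, or -1.41 with ratios taken within suffixes 2, 3, 5 and 6. The exception was Ccl9, a CC chemokine made by myeloid cells, at 519, 571, 804 and 664 CPM in suffixes 2, 3, 5 and 6 against 88.5 CPM. Ccl5 was at 271 CPM against 1353 CPM, and at 27.1 CPM without the 56 cells. Pf4, a platelet and macrophage chemokine, was at 2.76 CPM against 61.2 CPM. Of 20 profibrotic and repair macrophage genes, 12 were lower and 5 higher (median -2.07, or -0.78 with ratios taken within these suffixes). Retnla, Gpnmb, Spp1 and Mrc1, all macrophage genes, were at 1.38, 3.23, 13.8 and 14.7 CPM. Spp1 was at 2.26 CPM and Gpnmb had no UMI without the 56 cells. The higher ones included matrix and matrix-binding proteins: Fn1 (fibronectin) was at 853 CPM against 258 CPM, Tgfbi at 564 against 174 CPM, Lgals3 (galectin-3) at 1925 against 652 CPM and Thbs1 (thrombospondin 1) at 141 against 24.5 CPM.

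Of 7 colony-stimulating factor receptors 4 were 2-fold or more higher and 2 lower (median 1.18). Csf3r, the G-CSF receptor, was at 57.1 CPM against 17.8 CPM (3.21-fold), and Csf1r, the receptor for the macrophage growth factor M-CSF, at 206 CPM against 91.3 CPM (2.26-fold). Csf2rb, the shared beta chain of the GM-CSF receptor, was lower at 84.8 CPM against 172 CPM. Of 31 measured transcription factors 9 were higher and 4 lower (median 0.43). Irf5 was at 296 CPM against 77.8 CPM and Nr4a1 at 322 CPM against 109 CPM. Bhlhe40, a repressor active in macrophages and T cells, was lower at 20.7 CPM against 106 CPM, and at 12.4 CPM without the 56 cells. In the coagulation list 5 of 11 were higher and 2 lower: Serpinb10 was 11.4-fold higher and F10, clotting factor X, 2.73-fold higher.

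On the low side, Ebf1, a B cell transcription factor, was at 5.53 CPM against 401 CPM, Jchain, of secreted antibody, at 12.9 CPM against 529 CPM and Ly6d, a lymphoid antigen, at 10.1 CPM against 288 CPM. Fabp1, a fatty acid binding protein, had no UMI in the monocytes. It was at least 89.1-fold lower with 3 UMIs over the class taken as the floor. Counting error gave an upper limit of -6.18 for its log2 ratio, which allows a smaller difference. Its log2 ratio was -2.24 once cells with Krt79 or Ear1 were removed from the reference. Cd63, a lysosomal membrane protein, was at 5.53 CPM against 206 CPM. Alveolar macrophages make up part of these other leukocytes: 1126 of the 1363 cells with a UMI of Krt79 or Ear1 had Ptprc. With Krt79 or Ear1 cells removed from the reference, 481 genes were higher and 783 lower, the profibrotic list had a median of -0.92 and the lysosomal list moved from -0.90 to 0.11. The MHC class II median was then -2.35, the chemokine ligand median -3.07 and the interferon list median 0.84.

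**Figure D3:**
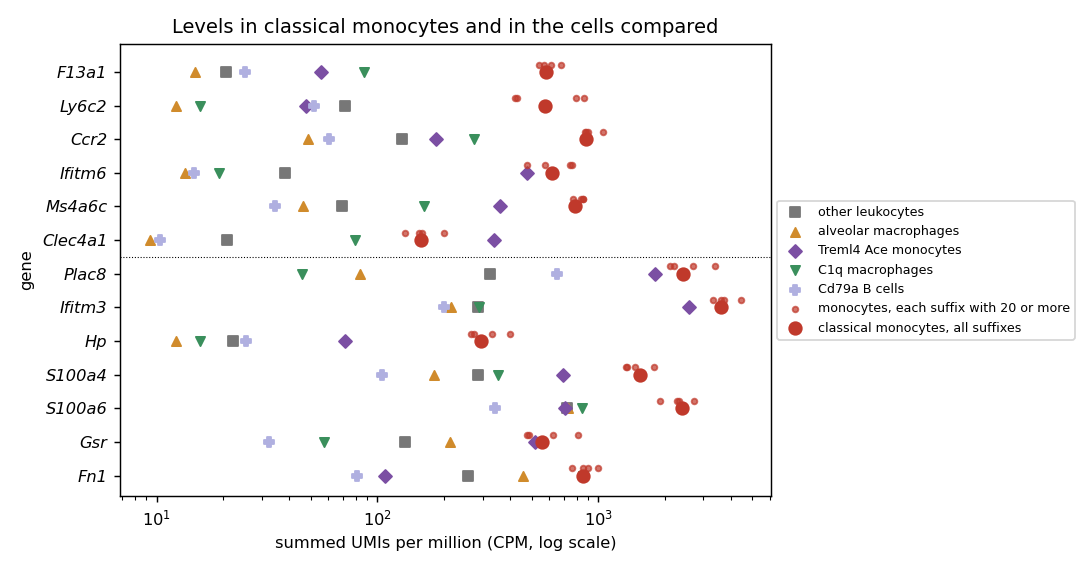
Levels in CPM (horizontal, log scale) of the 6 gate genes (above the dotted line) and 7 other genes in classical monocytes (large red circles, small red circles for suffixes 2, 3, 5 and 6) and in 5 other classes. For Plac8, Ifitm3, Hp, S100a4 and S100a6 each monocyte suffix lies to the right of all 5 other classes, and for Fn1 the C1q macrophages overlap the monocytes.

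Detection per cell was set beside B cells after thinning each cell to 1000 UMIs. This kept 415 of 418 monocytes and 1884 of 1917 B cells (1 or more Cd79a UMIs), whose median depths before thinning were 5035 and 2127 UMIs. Ifitm3 had a UMI in 85.5% of monocytes (81.8 to 88.8) and in 113 of the 1884 B cells (4.97% to 7.17%). Unthinned, those shares were 94.2% and 10.6%. Fn1 was found in 50.4% against 2.12% (unthinned 80.5% and 5.15%) and Hp in 25.5% against 0.796% (63.1% and 1.96%). The intervals of Ifitm3 did not overlap. In 111 thinned Treml4 Ace monocytes, described below, Ifitm3 was found in 90.1% (83.0 to 94.9), Fn1 in 5.41% and Hp in 6.31%. Plac8 was found in 73.0% of these cells (63.7 to 81.0) and in 73.3% of the classical cells (68.7 to 77.5). Detection of Ifitm3 and Plac8 thus did not set the classical cells apart from the Treml4 Ace cells. B cells did not lack Plac8 either: it was found in 37.3% of them (35.1 to 39.5), and in 56.8% unthinned. S100a8 was found in 4.10% (2.40 to 6.48) against 2.34% (1.70 to 3.12), or 50 of 418 cells and 6.79% unthinned, and S100a9 in 1.45% against 2.39%, or 8.43% and 4.72% unthinned. The intervals overlap for both genes. After thinning, S100a8 was found more often in the monocytes and S100a9 more often in the B cells, and these differences were not tested.

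Against alveolar macrophages, 573 of 6333 measured genes were 2-fold or more higher in the monocytes (9.05%) and 1525 were lower (24.1%). Of 27 interferon-stimulated genes 19 were higher and 2 lower (median 1.99, against -0.33 over all measured genes). Plac8 was at 83.6 CPM in the alveolar macrophages, 29.0-fold below the monocytes, and Ms4a4c at 5.44 CPM against 134 CPM. Cx3cr1, the fractalkine receptor of monocytes, was at 238 CPM against 18.5 CPM, and Coro1a, an actin regulator, at 1328 CPM against 260.4 CPM. The actin and migration list, with 4 of 27 higher and 3 lower (median 0.28), had most of its genes within 2-fold.

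On the alveolar macrophage side stood Cd9, a tetraspanin, at 2049.7 CPM against 38.7 CPM in the monocytes, Mrc1, the mannose receptor, at 639 against 14.7 CPM, and Pparg, the regulator of alveolar macrophage identity, at 61.0 against 1.38 CPM. Cd9 was at 11.3 CPM without the 56 cells, and its difference went from 53.0-fold to 181-fold lower. Of 31 lysosomal and lipid genes 20 were lower in the monocytes and 2 higher (median -1.74). Atp6v0d2, a proton pump subunit, was at 2.76 CPM against 440.2 CPM. Fth1 and Ftl1, the ferritin chains, were at 2751 and 6023 CPM against 11684 and 14888 CPM. The complement list was unstable: its median of -1.18 became 0.47 without suffix 4 and 0.66 against cells with 5 or more Krt79 and Ear1 UMIs and no Cd79a. The alveolar macrophage rule accepts a cell on 1 UMI, and 53 of its 1363 cells also had Cd79a.

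Nonclassical monocytes are the nearest relatives in the table. The 116 Treml4 Ace monocytes held 3 or more of Treml4, Ace, Adgre4, Spn, Eno3 and Pglyrp1 and met the same limits on the other classes. Suffixes 2 and 5 held 20 or more of both kinds. Of 5772 measured genes 389 were 2-fold or more higher in the classical cells (6.74%) and 799 lower (13.8%). The Treml4 Ace cells had a median of 2580.0 UMIs, against 5035 in the classical cells, and levels were corrected for this only by scaling to CPM.

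Of 15 S100 and annexin genes 6 were 2-fold or more higher in the classical cells and none lower (median 0.76), and 4 were higher and 2 lower without the 56 cells. Of 27 actin and migration genes 2 were higher and 3 lower. Of 30 interferon-stimulated genes 11 were higher and 2 lower, with a median log2 ratio of 0.41 against -0.16 over all measured genes. Classical monocyte genes outside the gate had 11 of 27 higher and 2 lower (median 0.47). Among single genes, Fn1 was at 1002, 896, 857 and 763 CPM in suffixes 2, 3, 5 and 6 against 108 CPM in the Treml4 Ace cells (7.88-fold). Capg, an actin-capping protein, was at 212 against 26.4 CPM (8.05-fold), Lgals1 (galectin-1) at 838 against 119 CPM and Vim (vimentin) at 3122 against 887 CPM. Cebpa, a transcription factor of early myeloid differentiation, was at 168 CPM against 31.7 CPM (5.31-fold), and at 176, 199, 168 and 125 CPM in the suffixes. S100a6 was at 2410.1 against 709.8 CPM, S100a10 at 881 against 232 CPM and the pattern receptor Cd14 at 122 against 31.7 CPM. Ccl9 was again higher, 5.06-fold. Bst2 (tetherin) was 5.15-fold higher with all members, and was at 229 CPM against 60.7 CPM without the 56 cells.

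Of 22 nonclassical genes outside the gates, 18 were 2-fold or more lower in the classical cells and none higher, with a median log2 ratio of -2.44 against -0.16 over all measured genes. The gates separate these classes on related genes, so this direction follows in part from the choice of cells. Nr4a1 was at 258, 263, 409 and 427 CPM in the classical cells of suffixes 2, 3, 5 and 6 and at 813 CPM in the Treml4 Ace cells. S1pr5, a sphingosine phosphate receptor that guides exit from the marrow, was at 7.83 against 177 CPM (22.6-fold lower). Itgal, the alpha chain of LFA-1, was at 100.0 against 596 CPM, and the Fc receptor Fcgr4 at 2.76 against 179 CPM. Of 11 MHC class I presentation genes 5 were 2-fold or more lower and none higher, beside 13.8% lower over all measured genes. H2-K1 was at 375 against 1113 CPM and B2m at 1822 against 3976 CPM. Csf1r was at 206 against 430.1 CPM.

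A few differences from the Treml4 Ace cells were less certain. Xcr1, the receptor of cross-presenting dendritic cells, and Tlr3 had no UMI in the classical cells but 23.7 and 26.4 CPM in the Treml4 Ace cells, a gate that such cells could enter. The chemokine ligand median of -1.70 turned to 0.16 without suffix 3 and to 0.13 in cells with both Ly6c2 and F13a1. In that comparison only 7 ligands were measured.

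C1q macrophages, which take in resident interstitial cells and monocyte-derived ones, were the other comparison. The 222 cells held 3 or more UMIs of the C1q genes and none of Krt79, Ear1 or Cd79a, and suffixes 2 and 5 held 20 or more of both kinds. Of 5801 measured genes 483 were 2-fold or more higher in the monocytes (8.33%) and 822 lower (14.2%). Plac8 was 53.0-fold higher in the monocytes (45.8 CPM in the macrophages), Hp 18.6-fold and Gsr, the glutathione reductase, 9.75-fold. Of 28 interferon-stimulated genes 21 were 2-fold or more higher and none lower (median 1.69, against -0.01 over all measured genes).

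Of 16 chemokine ligands 14 were lower in the monocytes and 1 higher (median -4.44, or -2.75 with ratios taken within suffixes 2 and 5). Ccl12, Ccl7 and Ccl8 had no UMI in the monocytes. With 3 UMIs over the class as the floor they were at least 137-fold, 66.8-fold and 57.8-fold lower. Counting error gave upper limits of -6.79, -5.74 and -5.53 for their log2 ratios, which allow smaller differences. Cxcl16 was at 6.45 against 419 CPM. MHC class II was lower in 7 of 9 genes: H2-Aa was at 315 against 3985 CPM and Cd74, the invariant chain, at 976 against 10226 CPM. Members other than the 56 had 158 CPM of H2-Aa and 501 CPM of Cd74. Ctsd, the lysosomal protease cathepsin D, was at 108 against 2355 CPM. Fn1 did not differ by 2-fold between these classes, at 853 CPM in the monocytes and 854 CPM in the macrophages. The granule list had a median of 1.75 with all members and -0.51 without the 56 cells. Camp led the higher genes only with those cells, its log2 ratio turning to -0.56.

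**Figure D4:**
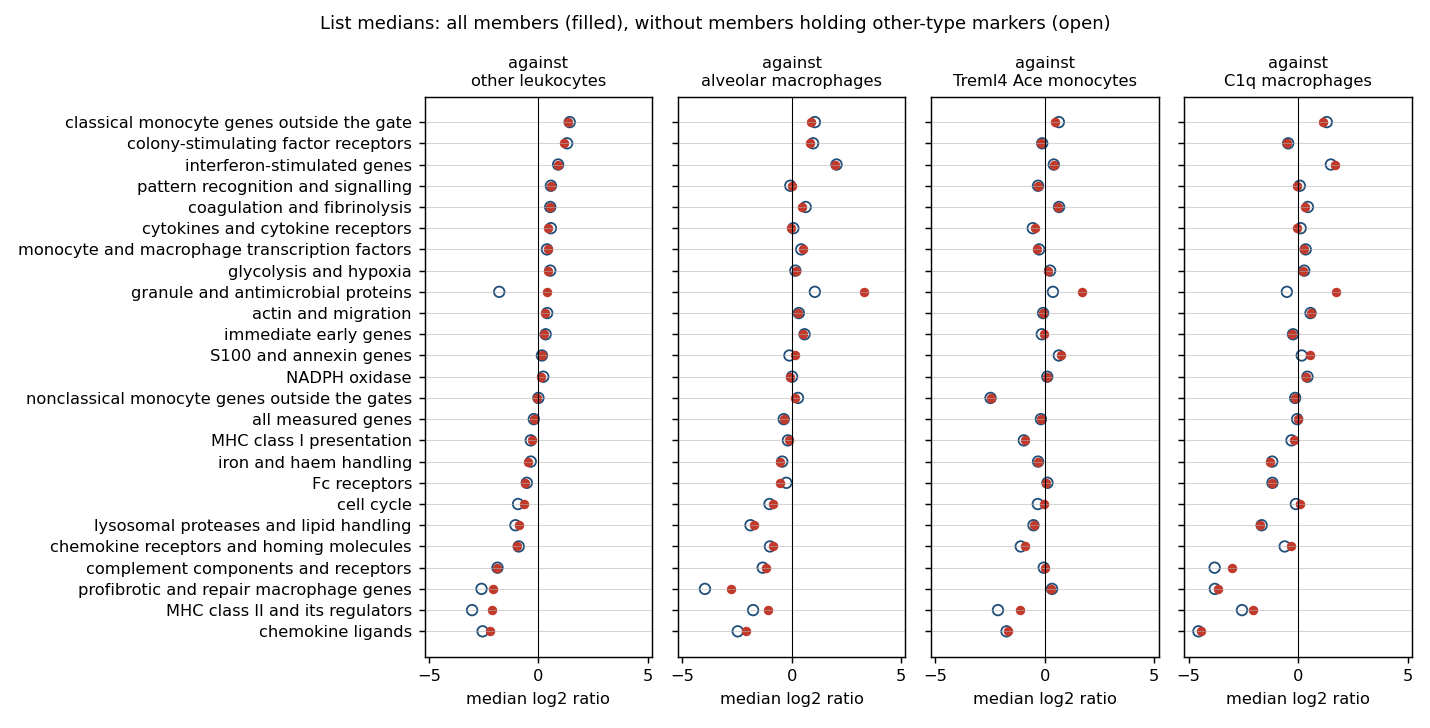
Median log2 ratio of classical monocytes over each of 4 reference classes for the gene lists with 5 or more measured genes (rows), with all members (filled) and without the 56 members that hold 3 or more markers of another cell type (open). Interferon-stimulated and classical monocyte genes lie to the right of 0 in all 4 panels and MHC class II genes to the left, while the granule list shifts between the filled and open points.

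Some genes outside the gate were more than 2-fold higher in the monocytes than in all 4 reference classes. Cd177 had the largest of these smallest differences, with log2 ratios of 3.93, 5.76, 4.56 and 6.22 against other leukocytes, alveolar macrophages, Treml4 Ace monocytes and C1q macrophages, the last 2 resting on 1 UMI each in the reference (intervals 2.06 to 9.87 and 3.72 to 11.54). Stxbp6 was at 139.6 CPM against 9.79, 5.01, 26.4 and 4.99 CPM in the same order. For Ms4a4c, a tetraspan relative of the gate gene Ms4a6c, the values were 134 CPM against 26.6, 5.44, 29.0 and 7.49 CPM. Hp, with 637 UMIs in 262 of the cells, was at least 2.04 higher on the log2 scale in each comparison. These references overlap, since non-members with a Ptprc UMI also count as other leukocytes.

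Within the monocytes, levels were mostly alike from suffix to suffix. Over 1264 genes with 200 or more UMIs outside the gate, the median ratio of the highest to the lowest of suffixes 2, 3, 5 and 6 was 1.37, and 94 genes differed 2-fold or more. Without the 56 cells 78 of 1039 genes did. Xist, the RNA that silences an X chromosome in females, was at 0, 0, 1074 and 1212 CPM, and the Y-linked Eif2s3y at 166, 211, 0 and 0 CPM. B cells of the same suffixes showed the same division, with Eif2s3y at 204, 237, 0 and 0 CPM. Sex and any other difference between suffixes 2 and 3 on one side and 5 and 6 on the other cannot be told apart.

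Thbs1 kept its spread without the 56 cells, at 185, 73.1, 304 and 221 CPM in suffixes 2, 3, 5 and 6. B cells had 26.8, 12.7, 1.93 and 2.34 CPM, so Thbs1 in the monocytes did not follow the level in B cells. Apoe, a lipid carrier of macrophages, was at 916, 607, 1947 and 1034 CPM without the 56 cells. In B cells, which should lack it, Apoe was at 222, 146, 504 and 140.4 CPM, with suffix 5 highest in both, and the part of free RNA was not tested. H2-Ab1, the beta chain of I-A, was at 241, 143, 91.1 and 63.4 CPM. Hpgd, a prostaglandin-degrading enzyme, was at 301, 222, 173 and 91.6 CPM, and B cells had 86.2, 89.7, 15.4 and 9.36 CPM. For both genes suffix 2 was highest and suffix 6 lowest. Ngp, Camp and Ccl5, which spread widest with all members, were no longer among the leading genes without the 56 cells.

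The monocytes also formed a range of MHC class II. They were ranked within each suffix by the share of UMIs from H2-Aa, H2-Ab1, H2-Eb1, Cd74, H2-DMa and H2-DMb1, and the 102 highest and 102 lowest cells were compared as a top and a bottom group. The groups are parts of a range, not cell types, and 78 of the 418 cells had no UMI of these genes. The score genes summed to 6944 CPM in the top group and 55.2 CPM in the bottom, and median depth was 5674 and 3569 UMIs. Of 2762 measured genes 117 were 2-fold or more higher and 109 lower. Without suffix 3 the sum of these counts rose from 226 to 428, and in cells with 4 or more gate genes it was 137.

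The genes furthest apart are given without the 56 cells, when each group held 87. Cd209a, a lectin of monocyte-derived dendritic cells, was then at 154 CPM in the top group and 8.70 CPM in the bottom, a log2 ratio of 4.15 (2.54 to 6.46). It was found in 24 and 2 cells. Cd209a is among the dendritic cell markers that picked part of the 56 cells, and 121 of its 223 UMIs remained without them. Its levels here are therefore set in part by that choice. Cd7, a lymphoid and dendritic cell antigen, was at 263 against 2.90 CPM, a log2 ratio of 6.50 (4.00 to 11.82) that rests on 1 UMI in the bottom group. Runx2, a transcription factor of plasmacytoid and other dendritic cells, was at 72.6 against 2.90 CPM, also with 1 UMI in the bottom group and an interval of 2.06 to 9.99 on the log2 scale. Upb1, a pyrimidine-degrading enzyme, was at 99.8 against 8.70 CPM (3.52, 1.88 to 5.85). In the bottom group F10 was higher at 197 against 45.4 CPM (-2.12, -2.92 to -1.38) and Vcan at 72.5 against 13.6 CPM (-2.41, -3.99 to -1.09). Siglech, of plasmacytoid dendritic cells, was at 105 CPM in the top group of all members and held by 11 cells, but only 9 of its 66 UMIs remained without the 56. Siglech is among the markers that picked those cells, so this loss is set in part by the choice.

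**Figure D5:**
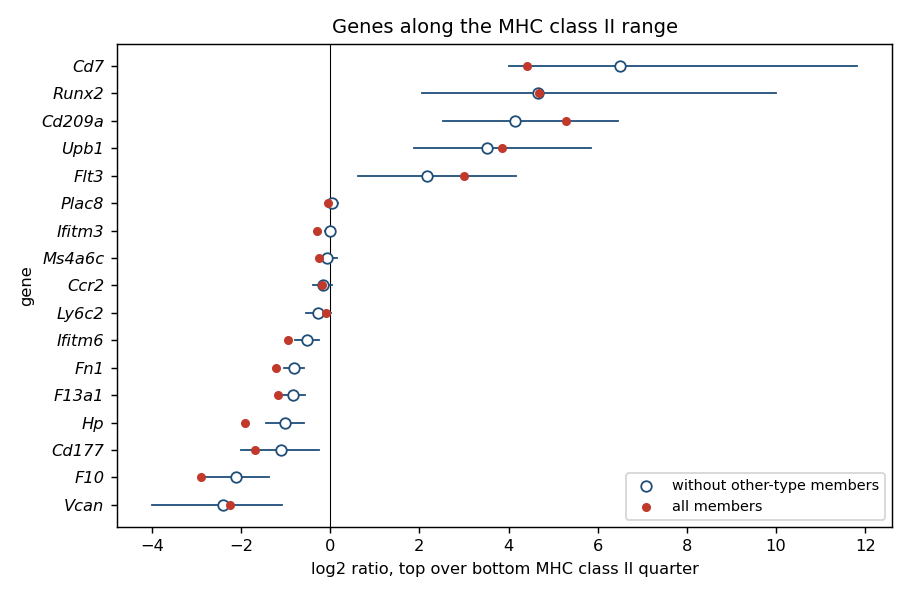
Log2 ratio of the top over the bottom group of monocytes by MHC class II share (horizontal), with all members (filled) and without the 56 members that hold markers of another type (open, with exact 95% intervals). Cd7, Runx2, Cd209a and Upb1 lie to the right, Plac8, Ifitm3, Ms4a6c and Ccr2 near 0, and F10 and Vcan to the left.

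Ranking by Ly6c2 instead compared the 102 highest cells with the 110 that had no Ly6c2 UMI and so were members through F13a1. Ly6c1, the near copy, was at 244 CPM in the high cells and 4.72 CPM in the others, a log2 ratio of 5.69 (3.81 to 8.75). It was found in 55 and 2 cells, and misassigned UMIs between the copies were not tested. Cells without Ly6c2 had more MHC class II RNA, with Cd74 at 1459.9 against 408 CPM and H2-Aa at 592 against 142 CPM. Without the 56 cells Cd74 was at 1039.9 against 229 CPM and H2-Aa at 465 against 70.3 CPM (6.61-fold), but it was found in only 18 of 102 cells without Ly6c2 and 12 of 87 high cells. Median depth was 3298 and 4946 UMIs in those groups. S100a8, at 1457 against 18.9 CPM with all members, was at 61.2 against 21.1 CPM without the 56 cells, a log2 ratio of 1.54 (0.36 to 2.88).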

How the data were processed

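Single cells were profiled with 10x 3′ v2 chemistry, per the labels' protocols. The authors' deposited raw table holds UMI counts of 27998 genes in 10410 barcodes. Per the submitters' processing notes, STAR 2.5.1, Cell Ranger 1.3.0 and mm10 were used. For cell calling, the method was not given in the sources used here. Values in the second deposited table, normalized by the authors, are a signal equal to the counts scaled to 2631.5 per barcode, within 4.775e-12. The same scaling, recomputed from the raw counts, served as an alternative. Counts were summed per class and scaled to CPM with numpy 2.4.6, and scipy 1.17.1 gave exact Poisson, conditional binomial and Clopper-Pearson intervals. The ratio script was checked on simulated data. Scrublet ran per suffix in scanpy 1.11.5. Gene positions came from GENCODE vM21 and start-site windows from RefSeq.

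Members and the 24 gene lists were chosen with earlier results of these data known; 506 of 513 list symbols and 118 of 121 marker symbols were in the table. Named genes were, per comparison, the 12 highest and 8 lowest log2 ratios on 1 side of 0 in every suffix with 20 or more cells of both classes, the 4 largest per list at 50 CPM or more, the widest over suffixes and the extremes of each range. Other genes, such as Fn1, Isg15, Ly6a, Elane, Mpo, Spi1, Csf1r, Coro1a, H2-DMa, Tgfbi, Lgals3, Cd14 and Vim, were chosen after their values were seen. A few genes that the rule names are not reported here.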

Additional observations from a re-analysis of the deposited data

How the results depend on the processing

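The number of monocytes depended on the rule: it was 236 with both Ly6c2 and F13a1 required and 186 after thinning to 1000 UMIs, and 225 to 411 with a suffix left out. Their share of kept barcodes was 6.09% at 1000 genes and 5% mitochondrial UMIs, 3.33% with 4 gate genes, 2.36% with both genes, 1.93% thinned, 3.62% without the 56 cells that hold other markers, and 2.61% to 5.90% with a suffix left out. Measured at 5 CPM, 2327 genes were lower than in other leukocytes, and 882 were higher and 2891 lower against alveolar macrophages, 865 and 1884 against Treml4 Ace monocytes, and 880 and 1788 against C1q macrophages. At 100 CPM the counts higher and lower were 143 and 166, 227 and 403, 84 and 182, and 149 and 190 in the same order of references; fewer or more genes enter by construction. Genes 2-fold apart over the suffixes numbered 60 with both genes required and 24 to 94 with a suffix left out. Between the top and bottom MHC class II groups 137 genes differed with 4 gate genes, and 226 to 428 with a suffix left out.

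Among the named genes and the list medians of 2-fold or more, directions turned in few results, and the cause was not tested. Single genes were less stable as means over suffixes. Against Treml4 Ace monocytes 219 of 388 genes then stayed 2-fold higher, 550 of 798 stayed 2-fold lower, and 48 changed sign. Sign changes numbered 37 against C1q macrophages, 32 against alveolar macrophages and 12 against other leukocytes. With Krt79 or Ear1 cells removed from the other leukocytes, 25 genes changed sign. Gm14161 against other leukocytes went to -0.92 with both genes required. The chemokine ligand median against Treml4 Ace monocytes went to 0.13 there and lay between -1.89 and 0.16 with a suffix left out (0.16 without suffix 3). Complement medians went to 0.03 against other leukocytes and 0.35 against alveolar macrophages as means over suffixes, and to 0.66 with the stricter alveolar macrophage rule; against alveolar macrophages it lay between -1.54 and 0.47 with a suffix left out (0.47 without suffix 4). Against C1q macrophages the granule median (-0.51) and Camp (-0.56) turned without the 56 cells. The granule median against other leukocytes, 0.37 with all members, was then -1.79. Leaving out these cells, or the member with most S100a8, was chosen after the data had been seen. No paired analysis was possible because the columns carry no replicate numbers and are not tied to samples. Depth limits low genes: 0 UMIs in the monocytes allow up to 1.38 CPM.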
